A study of Rattus norvegicus with 18 samples.

Results

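Primary rat microglia that received Aβ42 fibrils were compared with untreated microglia over 6 RNA-seq libraries, 3 of each group, which were chosen by their titles from the 18 libraries of the series. Both groups came from the cortex of wild-type Sprague-Dawley rat pups at postnatal day 2. The microglia were shaken off mixed glial cultures, plated in wells, and kept without serum for 3 h. One group then received Aβ42 fibrils of the twisted ribbon form at 25 µM for 24 h, and the control group received none. The other libraries were microglia with Aβ40 fibrils at the same dose and time and astrocytes with the same treatments, 3 libraries for each treatment. The Aβ40 microglia libraries entered the low-count filter, the scaling and the estimate of spread behind every test of Aβ42 against control. Apart from that, the other libraries are used only where named. The labels did not state whether replicates were separate cultures or animals, so the p-values measure the spread between libraries within groups, which may be technical. Cells in a dish are a limited model, since they are outside the brain and met the fibrils at 1 dose and 1 time.

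Microglia are the resident macrophages of the brain. In the healthy brain they survey tissue with receptors such as P2RY12 and CX3CR1, live on CSF1R signals and clear debris through phagocytic receptors and lysosomes. Fibrillar amyloid is recognized by pattern recognition and scavenger receptors, and ligands of these receptors are known to act through NF-kB, AP-1 and interferon regulatory factors on cytokine, chemokine, protease and complement genes. Microglia around amyloid plaques are known for a disease-associated state with genes such as Trem2, Apoe and Lpl.

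The deposited counts on genes were between 5098145 and 8249339 in the control libraries, and were 2613723, 22274367 and 17687416 in Aβ42 replicates 1, 2 and 3. All values below are therefore CPM, counts taken relative to the library total, after TMM scaling in edgeR. A gene with 3 counts has between 0.135 and 1.15 CPM here, a limit that takes in only counting error. Aβ42 replicate 1, the shallowest of the 6, stood apart from its group. The mean correlation of its log2 CPM over 10837 genes was 0.960 with Aβ42 replicates 2 and 3, which correlated at 0.996 with each other, and was 0.976 with the 3 Aβ40 libraries. After all libraries were thinned to the same total, these values were 0.958, 0.986 and 0.981, and the Aβ40 libraries correlated at 0.984 with each other. Over the 4623 genes with a mean of 50 CPM or more, also thinned, replicate 1 correlated at 0.913 with Aβ42 replicates 2 and 3. With the Aβ40 libraries it correlated at 0.978 over these genes. For Cebpb, the library labelled Aβ42 replicate 1 held 92.4 CPM, against 242 and 273 in the other Aβ42 libraries and 58.9, 63.3 and 73.1 in the Aβ40 libraries. The labels were kept as given, and results that change without this library are given with and without it.

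Of 10837 tested genes, 2935 rose and 2885 fell with Aβ42 fibrils at an adjusted p under 0.05, which is 27.1% and 26.6%. A rise of 2-fold or more was called for 1230 genes (11.4%) and a fall of that size for 1076 (9.93%). At 5-fold the numbers were 400 (3.69%) and 278 (2.57%), and for 394 and 278 of these genes every library of one group lay beyond all of the other. The median log2 fold change of all tested genes was 0.01, a value that TMM scaling holds near 0. The split of rises and falls moved with the scaling, to 3267 and 2586 with upper quartile factors and to 2750 and 3000 with library totals. A fit of the 6 libraries alone, without the Aβ40 libraries, gave 2719 risen and 2550 fallen. Without Aβ42 replicate 1, 1498 genes rose 2-fold or more (13.4%) and 1324 fell by as much (11.9%), and of the genes called with all libraries, 1201 and 1051 were among them. These shares are the background for the counts of list members that follow.

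**Figure D1:**
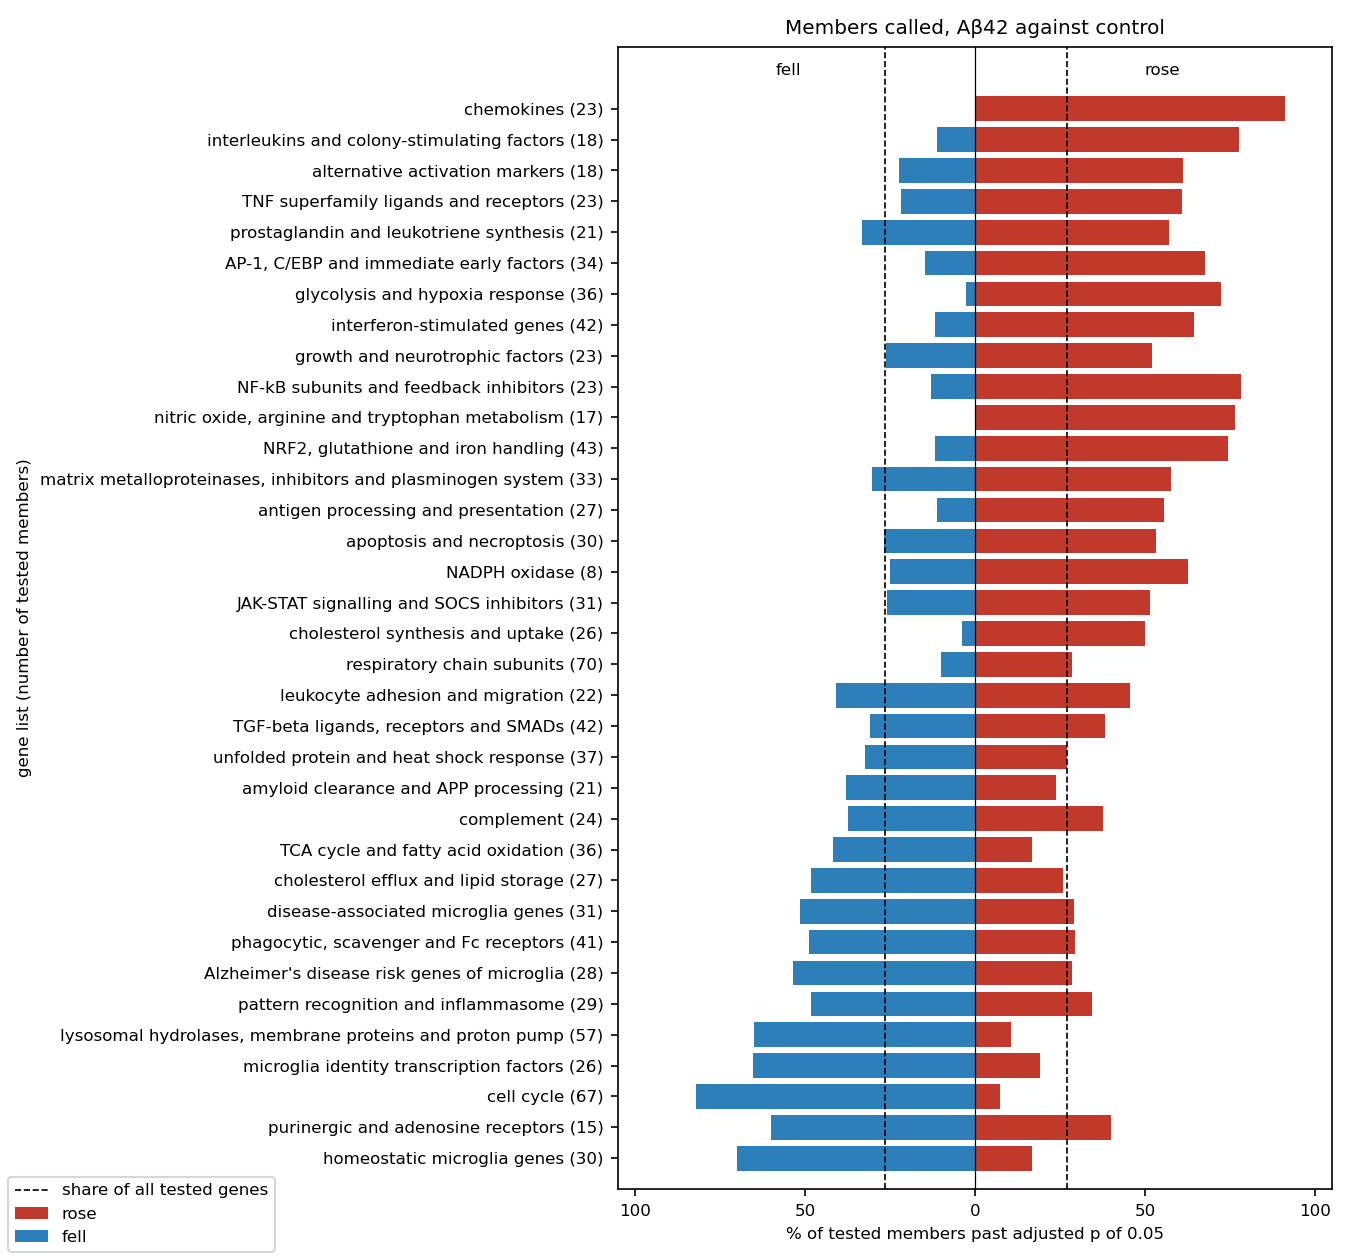
Share of the tested members of each gene list that rose (right) or fell (left) with Aβ42 fibrils at an adjusted p under 0.05, with the number of tested members in parentheses and dashed lines at the shares of all tested genes, 27.1% and 26.6%. Lists are ordered by their median log2 fold change, from chemokines (21 of 23 risen) to homeostatic microglia genes (21 of 30 fallen), and the cell cycle list has the largest share fallen, 55 of 67.

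Among genes called at 2-fold or more whose groups did not overlap, the smallest p-values of those that rose belonged to Scin, Cfb, Ccl20, Mt2A, Cxcl2 and Cxcl6. Scin encodes the actin-severing protein scinderin. Its level was 0.589, 0.773 and 0.458 CPM in the control libraries and 219.9, 192 and 214 CPM in the Aβ42 libraries, a log2 fold change of 8.42 ± 0.17 (SE, adjusted p = 5.92e-11 from the quasi-likelihood test of edgeR, adjusted by Benjamini-Hochberg, as for all adjusted p-values given). Ccl20 and Cxcl2 are chemokines for lymphocytes and neutrophils. Ccl20 went from 1.65, 1.16 and 0.61 CPM to 226, 218 and 215 CPM, and Cxcl2 from 30.3, 27 and 22.7 to 2384, 1759.9 and 2225. Mt2A, a metal-binding metallothionein, had 1.53, 2.32 and 1.53 CPM in control and 285, 269.8 and 363 CPM with Aβ42 fibrils. The absence of overlap was part of how these genes were chosen.

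By the same choice, the smallest p-values of genes that fell belonged to Gpr183, Dhrs9, Gpr34, Blnk, Myo7a and Csf1r. Gpr183 is the oxysterol receptor that guides migration of immune cells. It had 132, 133 and 149.8 CPM in control and 2.4, 1.95 and 2.34 CPM in Aβ42 libraries (log2 fold change -5.997 ± 0.16, edgeR adjusted p = 2.45e-10). Dhrs9, a retinol and steroid dehydrogenase of macrophages, had 174, 194 and 199 CPM against 8.4, 7.41 and 7.47. Blnk, an adaptor of immune receptor signalling, had 242, 215 and 282 CPM against 9.2, 8.36 and 9.86. Myo7a, an unconventional myosin, was at 71.6, 71.5 and 71.7 CPM in control and at 4.4, 5.07 and 4.68 CPM with fibrils.

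Chemokine genes rose together. Of 26 chemokines, 23 were tested, 21 rose, all of them 2-fold or more, none fell and 17 rose 5-fold or more, with a median log2 fold change of 4.14 against 0.01 over all genes. Cxcl1, a neutrophil attractant, had 40.2, 38.8 and 27.1 CPM in control and 3591, 1862 and 2294 CPM after Aβ42 fibrils, a log2 fold change of 6.19 ± 0.28 (edgeR adjusted p = 4.89e-09). Ccl2, the main attractant of monocytes, had 172, 129 and 119 CPM against 3734, 2068 and 2441 (log2 fold change 4.29 ± 0.24, edgeR adjusted p = 2.79e-08). For both, replicate 1 was the highest Aβ42 library, and no Aβ42 library came near the control range. Ccl3, a macrophage inflammatory protein, went from 404, 364 and 353 CPM to 5506, 2439 and 3008 CPM. Cxcl6 had the largest fitted change of the list, 8.18 ± 0.22 on the log2 scale, from 0.589, 0.193 and 0.305 CPM to 108, 126 and 121 CPM, and 8.79 without control replicate 1. Cxcl10, the interferon-inducible ligand of CXCR3, showed a smaller log2 fold change of 2.40 ± 0.28, with 15.8, 9.27 and 9.76 CPM against 44.4, 56.2 and 82.9. Ccl22 had 0, 1 and 3 counts in the control libraries and 38.4, 32.2 and 32.4 CPM with Aβ42 fibrils, a ratio of summed counts of 165 (95% counting interval 64.4 to 608). Cxcl16, a scavenger receptor and chemokine of macrophages, had 719.9, 709 and 698 CPM against 739.7, 512 and 548 and did not pass the test (edgeR adjusted p = 0.137), but without Aβ42 replicate 1 its log2 fold change was -0.42 and passed.

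Short stretches of the promoters of genes that rose are shown because NF-kB is known to act on several of them. A window of 250 bases before to 50 bases after the start of each gene was taken from RefSeq (GRCr8) and searched on both strands for the kB string (GGGA, any 2 bases, then TTCC), which is written in capitals below. Of the 18 tested chemokines with a window, 5 held it (27.8%), as did 4 of 19 members of the NF-kB list. In the interleukin list 1 of 9 held it, Il6. The string stood in 1.25% of all 24206 promoters and in 1.36% of those of tested genes. Cxcl1 (chr14:17479370-17479430, minus strand) and Cxcl6 (chr14:17596470-17596530, minus strand) hold the same stretch in capitals, in which overlapping matches lie on both strands. The windows of Il6 (chr4:5894609-5894668, minus strand), Nfkbia (chr6:78597069-78597128, minus strand) and Nfkb2 (chr1:255108329-255108388, plus strand) hold it once (in Nfkbia on the reverse strand), with its first base 68, 31 and 20 bases before the start.
Cxcl1: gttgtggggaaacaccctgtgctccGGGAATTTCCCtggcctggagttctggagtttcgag
Cxcl6: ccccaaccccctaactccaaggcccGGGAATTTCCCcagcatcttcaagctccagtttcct
Il6: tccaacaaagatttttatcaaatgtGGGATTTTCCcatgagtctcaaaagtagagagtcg
Nfkbia: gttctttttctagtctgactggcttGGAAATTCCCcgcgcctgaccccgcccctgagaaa
Nfkb2: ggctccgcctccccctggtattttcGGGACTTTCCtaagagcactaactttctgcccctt

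Interleukins and colony-stimulating factors rose in 14 of 18 tested members, 14 of them 2-fold or more, and 2 fell, with a median log2 fold change of 3.35. Il1b, the inflammasome-processed cytokine, had 243, 199 and 233 CPM in control and 4648, 3725 and 4656 CPM with Aβ42 fibrils (log2 fold change 4.27 ± 0.14, edgeR adjusted p = 7e-10). Il1a rose from 51.4, 48.1 and 30.4 CPM to 4383, 2618 and 3040.1 CPM. Il6, a driver of the acute phase response, was at 2.12, 1.93 and 0.153 CPM in control and 380.3, 253 and 303 CPM with fibrils, a log2 fold change of 7.75 ± 0.36 that was 8.35 without control replicate 1. Csf3, the growth factor of granulocytes, went from 10.5, 9.47 and 4.58 CPM to 1848, 1792 and 2153 CPM (log2 fold change 7.87 ± 0.24). Il12b, the shared subunit of interleukins 12 and 23, had 1, 0 and 1 counts in control and 8.0, 6.02 and 8.67 CPM with fibrils, a ratio of 73 (95% counting interval 20.05 to 606). The lowest member was Il16, a ligand of CD4, with 30.4, 24 and 41.6 CPM in control and 0.40, 0.39 and 0.57 CPM with Aβ42 fibrils (log2 fold change -6.06 ± 0.32, edgeR adjusted p = 1.45e-08).

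TNF superfamily ligands and receptors rose in 14 of 23 tested members and fell in 5, with a median log2 fold change of 1.79. Tnf itself had 116, 101.2 and 108 CPM in control and 1129.6, 907 and 1073 CPM with Aβ42 fibrils (log2 fold change 3.25 ± 0.12, edgeR adjusted p = 1.24e-09). Lta, lymphotoxin alpha, went from 0.236, 0.966 and 0.458 CPM to 196, 135 and 172 CPM, the largest change of the list at 8.34 ± 0.27 on the log2 scale. Receptors rose as well. Cd40, a receptor of co-stimulation, had 37.3, 26.3 and 33.4 CPM against 179, 202 and 236, and Tnfrsf1b, the type 2 receptor of TNF, 125, 113 and 156 against 679, 889 and 1035. Tnfsf13b, the B cell survival factor BAFF, fell from 12.3, 10.2 and 10.5 CPM to 0.80, 0.39 and 0.399 CPM (log2 fold change -4.67 ± 0.27).

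NF-kB subunits and feedback inhibitors rose in 18 of 23 tested members and fell in 3, with a median log2 fold change of 0.95. Nfkbia, the inhibitor that NF-kB induces, had 165, 127 and 136 CPM against 878, 681 and 738 (log2 fold change 2.42 ± 0.13, edgeR adjusted p = 2.17e-08). Birc3, a ubiquitin ligase of TNF receptor signalling, went from 22, 19.7 and 17.8 CPM to 343, 254 and 300.0 CPM. Nfkb2, a subunit of the noncanonical branch, had 128, 124 and 98.4 CPM in control, 244, 344 and 362 CPM after Aβ42 fibrils, and a log2 fold change of 1.45 ± 0.15. Its replicate 1 lay nearest to the control range, but the groups did not overlap. Otulin, which removes linear ubiquitin chains, fell from 231, 209.8 and 254 CPM to 97.6, 99.7 and 114 CPM (log2 fold change -1.15 ± 0.12).

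Receptors that sense microbial and damage signals moved in both directions, with 10 of 29 members risen and 14 fallen. Cd14, the co-receptor of TLR4, rose from 536, 525 and 486 CPM to 1283, 1121 and 1277 CPM, and Nlrp3, the inflammasome sensor, from 144, 142 and 162 CPM to 359, 268 and 342 CPM. Tlr2 had 391.6, 337 and 409 CPM against 443, 577 and 643 (log2 fold change 0.55 ± 0.13, edgeR adjusted p = 0.00426). Tlr5, the flagellin receptor, fell from 36.9, 24.5 and 33.6 CPM to 0, 0.39 and 0.399 CPM (log2 fold change -6.38 ± 0.30, edgeR adjusted p = 5.64e-09).

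Signalling genes downstream of cytokines were mixed. In the JAK-STAT list, 16 of 31 members rose and 8 fell, against 27.1% and 26.6% of all tested genes. Socs3, the feedback inhibitor of STAT3 signalling, had 3.3, 3.67 and 2.75 CPM in control and 202, 277 and 332 CPM with fibrils (log2 fold change 6.39 ± 0.22, edgeR adjusted p = 7e-10), while Il6r, the receptor of interleukin 6, fell from 156, 147 and 172 CPM to 45.2, 42.6 and 45.8 CPM. Il2ra had 0.471, 0.193 and 0 CPM against 50.4, 27.5 and 33, a log2 fold change of 7.07 ± 0.46 that was 8.47 without control replicate 1. Il4r had 131, 99.9 and 134 CPM against 119, 121 and 143 and did not pass the test.

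Interferon-stimulated genes rose in 27 of 42 tested members and fell in 5, with a median log2 fold change of 0.999, and 21 rose 2-fold or more. The median by library was 0.68 in Aβ42 replicate 1 and 1.01 and 1.09 in replicates 2 and 3, as log2 CPM over the control mean. Isg15, a ubiquitin-like antiviral protein, had 45.8, 25.5 and 40.3 CPM in control and 182, 239 and 289 CPM with fibrils (log2 fold change 2.66 ± 0.21, edgeR adjusted p = 5.54e-07), and Ifit3 had 118, 77.5 and 124 CPM against 366, 445 and 525. Ifitm3, which blocks viral entry, showed the largest rise, from 7.3, 3.86 and 4.12 CPM to 149, 191 and 205 CPM. Mx1, a dynamin-like antiviral GTPase, had 520.2, 307 and 530.3 CPM in control and 381, 464 and 584 CPM with fibrils, with overlapping groups (edgeR adjusted p = 0.767). Zbp1, a sensor of Z-form nucleic acid, fell from 55.4, 31.9 and 55.2 CPM to 4.0, 3.94 and 5.87 CPM (log2 fold change -3.33 ± 0.29). The interferon response string (GAAA, any 2 bases, then GAAA) stood in 23 of the 32 promoter windows of this list, against 3.74% of all promoters and 2.91% of those of tested genes. It is shown in capitals for Ifit3 (chr1:241527257-241527316, plus strand), where it matches on the reverse strand, and for Ifitm3 (chr1:205541768-205541827, minus strand).
Ifit3: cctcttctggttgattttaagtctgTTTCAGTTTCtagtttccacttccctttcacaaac
Ifitm3: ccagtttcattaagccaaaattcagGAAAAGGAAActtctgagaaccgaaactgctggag

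Antigen presentation rose in 15 of 27 tested members and fell in 3, or in 19 and 7 of 29 without Aβ42 replicate 1, and 5 fell without Aβ42 replicate 2 or 3. RT1-Ba, a class II chain, went from 2.59, 2.9 and 2.75 CPM to 14.4, 17.8 and 18.4 CPM, and Cd74, the invariant chain, from 64.8, 57.2 and 77.3 CPM to 102, 104 and 114 CPM. RT1-Ba belongs to a family of near-identical genes, among which reads may have been split. Tap1, the peptide transporter of class I loading, had 90.8, 94.7 and 84.2 CPM against 138, 286 and 333 (log2 fold change 1.51 ± 0.24, edgeR adjusted p = 0.000275), with replicate 1 well under the other Aβ42 libraries. Ctss, the cathepsin that trims the invariant chain, fell from 752, 672 and 859 CPM to 148, 179 and 214 CPM (log2 fold change -2.07 ± 0.14). Cd86, a co-stimulatory ligand, had 47.1, 42.5 and 48.4 CPM against 61.6, 39.8 and 58.2, and its groups overlapped.

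**Figure D2:**
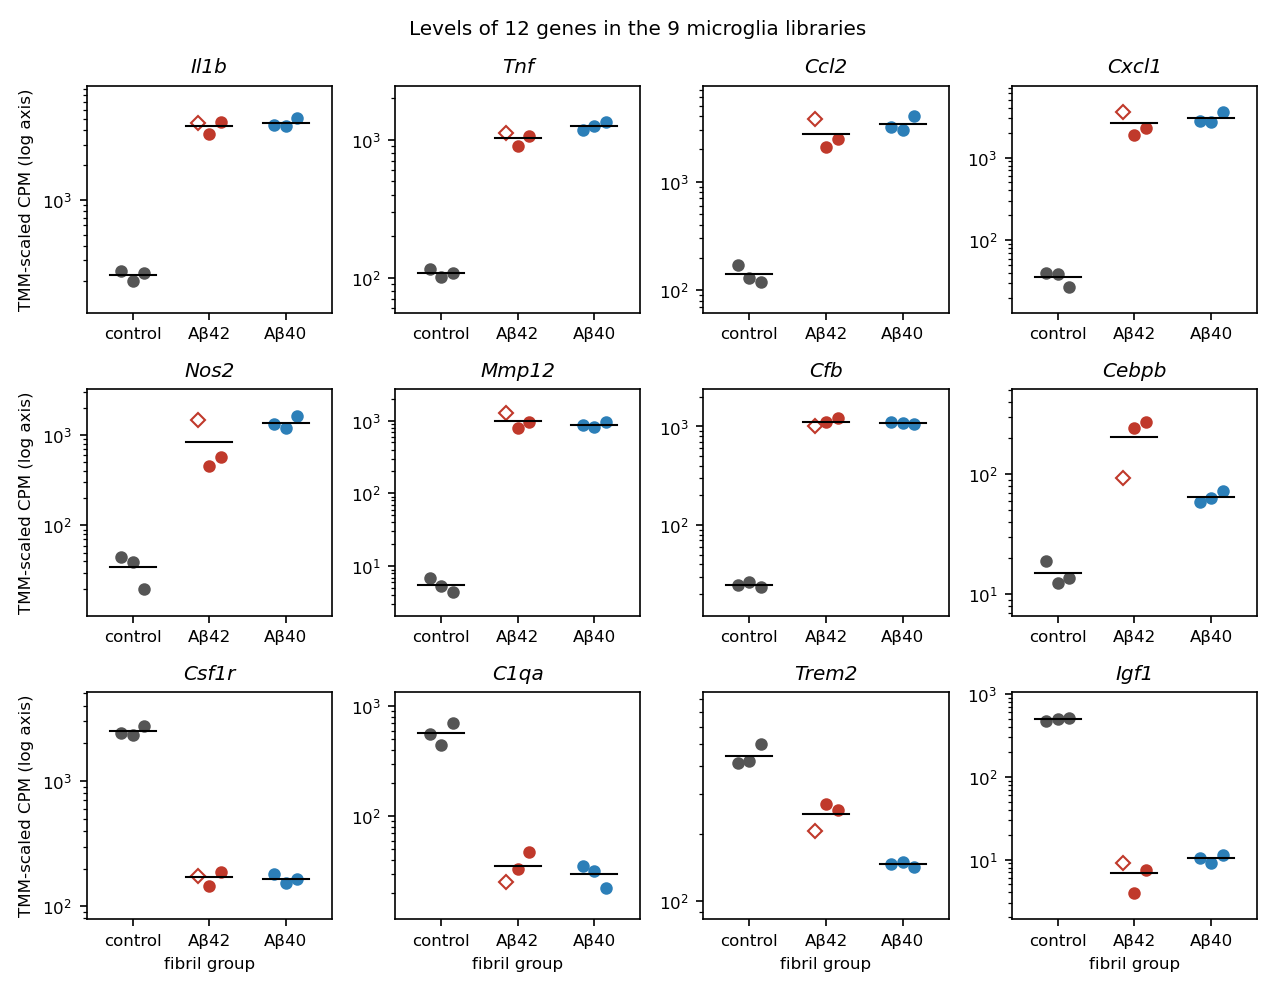
TMM-scaled CPM on log axes of 12 genes in the 9 microglia libraries (points), with the mean of each group as a bar and Aβ42 replicate 1 as an open diamond. Il1b, Tnf, Ccl2, Cxcl1, Nos2, Mmp12, Cfb and Cebpb lie above the control libraries in every Aβ42 library and Csf1r, C1qa, Trem2 and Igf1 below, and for Cebpb and Nos2 the diamond lies near the Aβ40 points.

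Complement genes moved in both directions. Of 24 tested members, 9 rose and 9 fell, all 9 of the latter 2-fold or more, and the median log2 fold change was -0.15. Cfb, the protease of the alternative pathway, had 24.7, 26.3 and 23.5 CPM in control and 1001, 1114 and 1224 CPM with Aβ42 fibrils (log2 fold change 5.49 ± 0.12, edgeR adjusted p = 8.75e-11). C1r, a protease of the C1 complex, went from 72, 58.1 and 65.6 CPM to 452, 428 and 409.6 CPM (log2 fold change 2.72 ± 0.11). C1s, its partner, had 6.36, 12.2 and 7.93 CPM against 306, 306 and 294. The recognition chains of the same complex fell. C1qa had 560.1, 445 and 705 CPM in control and 25.2, 32.8 and 47.6 CPM with fibrils (log2 fold change -3.97 ± 0.24, edgeR adjusted p = 6.17e-08), C1qb 443, 333 and 517 CPM against 32.8, 33.1 and 62.5, and C1qc 463, 391 and 597 CPM against 29.99, 27.9 and 42.8. C3ar1, the receptor of C3a, fell from 311, 229 and 356 CPM to 30.8, 13.5 and 16 CPM. C3, on which all pathways meet, had 2734, 1955 and 2718 CPM in control and 2366, 2459 and 2394 CPM with fibrils, with overlapping groups (log2 fold change -0.04 ± 0.13, edgeR adjusted p = 0.824). C1s, C1qb and C1qc are named here, after their values were seen, to complete the C1 complex.

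**Figure D3:**
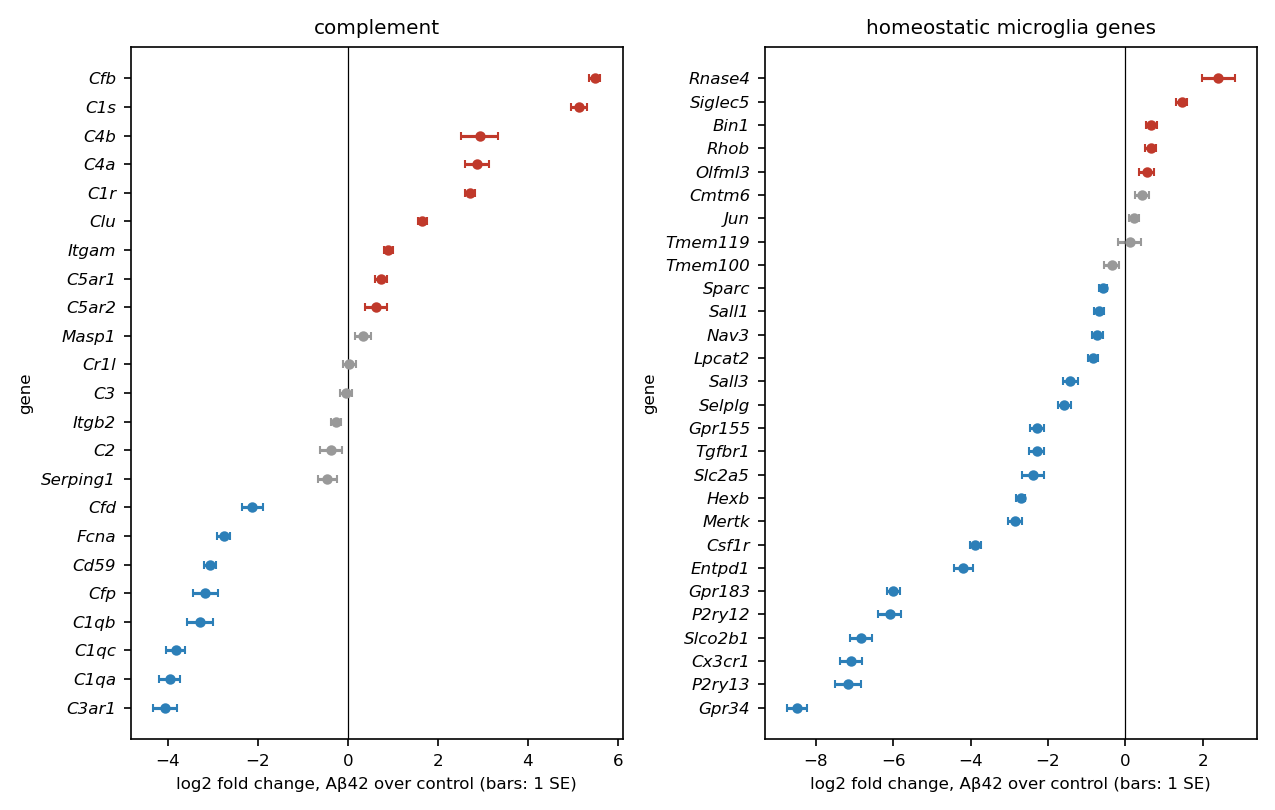
Log2 fold change of Aβ42 over control for tested complement (left) and homeostatic microglia genes (right) other than a few that are not reported, with bars of 1 SE, in red or blue where the adjusted p is under 0.05 and grey otherwise. Cfb, C1s and C1r lie to the right of 0 and the C1q chains to the left, and Gpr34 has the lowest value of the homeostatic list at -8.48.

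Enzymes that make lipid mediators and nitric oxide rose in part. In the prostaglandin and leukotriene list, 12 of 21 members rose and 7 fell, or 4 fell without control replicate 2. Ptgs2, the inducible cyclooxygenase, had 15.3, 13.9 and 9.61 CPM against 2560.2, 1087 and 1529 (log2 fold change 7.05 ± 0.33, edgeR adjusted p = 5.74e-09), and Ptges, the prostaglandin E synthase, 0.471, 0.386 and 0 CPM against 22, 30.9 and 48.1 (log2 fold change 6.82 ± 0.49, and 7.57 without control replicate 1). The constitutive Ptgs1 also rose, from 34, 27.8 and 32.2 CPM to 117, 102 and 123 CPM. Pla2g2a, a secreted phospholipase, had 1 count in the 3 control libraries together and 78, 47 and 50.7 CPM with fibrils, a ratio of 1019 (95% counting interval 183 to 40273). Alox15, a lipoxygenase, fell from 55.6, 66.1 and 72.5 CPM to 1.2, 0.39 and 0.855 CPM (log2 fold change -6.63 ± 0.25). In the nitric oxide, arginine and tryptophan list, 13 of 17 members rose and none fell. Nos2, the inducible nitric oxide synthase, had 45, 39.2 and 19.98 CPM in control and 1453, 454 and 575 CPM with fibrils, a log2 fold change of 4.56 ± 0.44 (edgeR adjusted p = 3.48e-06) and of 3.87 without Aβ42 replicate 1. Ass1, which regenerates arginine from citrulline, went from 0.471, 0.193 and 0.458 CPM to 50.4, 46.6 and 51.1 CPM. Arg1, the arginase that competes with Nos2, had 1, 3 and 0 counts in control and 6.4, 2.77 and 4.73 CPM with fibrils, a ratio of 19.1 (95% counting interval 7.33 to 71.1).

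Homeostatic microglia genes fell together. Of 30 tested members, 21 fell and 5 rose, 16 fell 2-fold or more and 11 5-fold or more, with a median log2 fold change of -1.28. Without Aβ42 replicate 1, 16 again fell 2-fold or more. Csf1r, the receptor on which microglial survival depends, had 2414, 2323 and 2745 CPM in control and 176, 147 and 189 CPM with Aβ42 fibrils (log2 fold change -3.87 ± 0.13, edgeR adjusted p = 7.58e-10). Gpr34, a lysophosphatidylserine receptor, fell from 131, 137 and 148 CPM to 0.80, 0.39 and 0.285 CPM (log2 fold change -8.48 ± 0.25). Cx3cr1, the receptor of neuronal fractalkine, had 31.6, 35.2 and 43.6 CPM against 0.40, 0.217 and 0.285, and P2ry12, the receptor that steers processes to ADP, 41.3, 36.7 and 51.9 CPM against 0, 0.563 and 0.798. In the Aβ42 libraries Gpr34, Cx3cr1 and P2ry12 had between 0 and 14 counts. Tmem119, a microglial membrane protein, was low in both groups, with 3.89, 4.25 and 4.12 CPM against 1.2, 4.55 and 5.13, and did not pass the test (edgeR adjusted p = 0.776). The few members that rose included Rnase4, with 0.471, 1.16 and 0.458 CPM against 3.6, 3.55 and 3.36. In bulk RNA, fewer cells of a type and less RNA per cell cannot be told apart.

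The markers of microglia and macrophages overlap with this list, and their summed level was 16451 to 19083 CPM in the control libraries and 5447 to 8318 CPM in the Aβ42 libraries. Of these 20 markers, 14 fell and 1 rose. The other marker lists were measured for RNA of other cells. Summed markers were 997 to 1101 CPM in control and 746 to 844 CPM with Aβ42 fibrils for astrocytes, 3786 to 4250 and 4589 to 5356 for the oligodendrocyte lineage, and 884 to 1000.2 and 1006 to 1260 for neurons. They were 443 to 479 and 424 to 498 for endothelial cells, and 404 to 474 and 275 to 314 for fibroblasts, pericytes and smooth muscle. Summed markers of the oligodendrocyte lineage and of neurons were thus higher in every Aβ42 library, and their part in the results was not tested. For neurons the groups nearly met, with 1006 CPM in Aβ42 replicate 3 and 1000.2 CPM in control replicate 2, and Aβ42 replicate 1 was highest at 1260 CPM. In the oligodendrocyte lineage, 8 of 20 rose, 5 of them 2-fold or more, and 3 fell (5 without Aβ42 replicate 1). Of 17 neuron markers, 6 rose (3 without Aβ42 replicate 2), 1 of them 2-fold or more, and none fell (5 without Aβ42 replicate 1). Of all tested genes, 27.1% rose, 26.6% fell and 11.4% rose 2-fold or more. Astrocyte markers rose in 5 (3 without control replicate 3) and fell in 4 of 15, endothelial ones in 3 and 4 of 12, and those of fibroblasts, pericytes and smooth muscle in 5 and 5 of 14. The sum for T, NK and B cells, 654 to 887 CPM in control and 38.1 to 51.6 CPM with fibrils, was nearly all Cd4, which rat macrophages are known to express, and Cd3e, Cd3g and Ms4a1 had no count. Neutrophil and monocyte markers summed to 838 to 1259 CPM and 2135 to 2470 CPM, nearly all of it from the integrin Itgal. Of the 6 tested, 4 rose 2-fold or more and 2 fell, their part in the results was not tested, and Mpo, Ltf, Mmp8 and Retnlg had no count.

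Genes of the disease-associated state did not rise as a group. Of 31 tested members, 9 rose and 16 fell, and the median log2 fold change was -0.33. Among all tested genes, 27.1% rose and 26.6% fell. Trem2, the lipid receptor through which this state is reached in plaque microglia, had 415, 421 and 500.3 CPM in control and 206, 271 and 255 CPM after Aβ42 fibrils, a log2 fold change of -0.86 ± 0.12 (edgeR adjusted p = 8.41e-05). Apoe fell from 7665, 9418 and 9218 CPM to 4444, 3532 and 4397 CPM (log2 fold change -1.09 ± 0.13). Lpl, the lipoprotein lipase, fell far more, from 2449, 3287 and 2956 CPM to 40.8, 11.5 and 24.5 CPM, and Igf1, a trophic factor, from 471, 503 and 512 CPM to 9.2, 3.9 and 7.47 CPM. Their log2 fold changes were -6.98 ± 0.38 and -6.35 ± 0.24. Gpnmb had 7199, 9678 and 8185 CPM against 2986, 2170.0 and 2179.8, and Spp1, osteopontin, 3139, 4365 and 3442 CPM against 2601, 1835 and 2176, and both fell. Cst7, an inhibitor of cathepsins, rose from 8.25, 5.22 and 4.73 CPM to 25.2, 17.5 and 20.2 CPM, and Atp6v0d2, a proton pump subunit, from 2.24, 1.74 and 2.14 CPM to 30.8, 24.9 and 26.6 CPM (log2 fold change 3.69 ± 0.18).

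Microglial genes near Alzheimer's disease risk loci fell in 15 of 28 tested members and rose in 8. Inpp5d, a phosphatase that restrains TREM2 signals, had 351, 339 and 381 CPM against 94.8, 83.5 and 106 (log2 fold change -1.91 ± 0.11), and Plcg2, a phospholipase downstream of TREM2, 140.1, 140.2 and 138 CPM against 68, 56.6 and 64. Picalm, an adaptor of endocytosis, fell from 454, 440.2 and 462 CPM to 323, 199.9 and 215 CPM. Sorl1, a sorting receptor of APP, had 3.65, 4.64 and 4.27 CPM against 4.8, 5.76 and 6.61, a log2 fold change of 0.53 ± 0.21 (edgeR adjusted p = 0.0494) that lost the call when any single control library was left out. The call was also lost without Aβ42 replicate 2 or 3, in the 6 libraries alone, with library totals, with no filter and with the replicate block. In the list of amyloid clearance and APP processing, 5 of 21 members rose and 8 fell, against 27.1% and 26.6% of all tested genes. App itself had 543, 567 and 594 CPM against 475, 586 and 575 (edgeR adjusted p = 0.675). Ide, the insulin-degrading enzyme that also cleaves Aβ, fell from 95.5, 107 and 104 CPM to 66, 44.1 and 41.9 CPM, and Abcb1a, an efflux transporter, rose from 0.942, 0.773 and 0.153 CPM to 29.6, 22.7 and 24.3 CPM, with a log2 fold change of 5.24 ± 0.32 and of 5.83 without control replicate 1.

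Phagocytic, scavenger and Fc receptors fell in 20 of 41 tested members, 17 of them 2-fold or more, and rose in 12. The shares of all tested genes were 26.6% fallen and 27.1% risen. Mrc1, the mannose receptor, had 961, 934 and 1012 CPM in control and 82.4, 55.9 and 60.4 CPM with Aβ42 fibrils (log2 fold change -3.90 ± 0.15, edgeR adjusted p = 1.32e-09). Cd36, a scavenger receptor that binds fibrillar Aβ, had 28.2, 32.3 and 47.7 CPM in control and 3, 2 and 3 counts in the Aβ42 libraries, a control-to-Aβ42 ratio of 191 (95% counting interval 96.6 to 445). Fcgr1a, the high-affinity Fc receptor, fell from 259.9, 245 and 318 CPM to 164, 147 and 192 CPM. Msr1, the class A scavenger receptor, went the other way with 499.6, 522 and 566 CPM against 1083, 644 and 739 (log2 fold change 0.63 ± 0.17, and 0.38 without Aβ42 replicate 1). Clec4d, a C-type lectin, rose from 6.01, 6.57 and 3.66 CPM to 259, 235 and 269 CPM. Marco had no count in the 6 libraries.

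Lysosomal genes fell in 37 of 57 tested members and rose in 6, with a median log2 fold change of -0.54, and 15 of the falls reached 2-fold. Manba, the lysosomal beta-mannosidase, fell from 157, 151 and 158 CPM to 19.2, 18.6 and 17.5 CPM (log2 fold change -3.09 ± 0.11, edgeR adjusted p = 1.13e-09). Lamp1, a major membrane protein of lysosomes, had 2088, 2156 and 2137 CPM against 1335, 1177 and 1257, and Ctsb, a cathepsin, 5051, 5962 and 5676 CPM against 4036, 3239.6 and 3582. Both fell by less than 2-fold without overlap. Ctsd had 2911, 3378 and 3278 CPM against 2888, 3214 and 3485 (edgeR adjusted p = 0.982). Smpd1, the acid sphingomyelinase, rose from 98.8, 115 and 108 CPM to 462, 659 and 657 CPM (log2 fold change 2.47 ± 0.15).

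Transcription factors of microglial identity fell in 17 of 26 tested members and rose in 5, or in 3 without control replicate 1. Irf8, required for microglial development, had 186, 150.1 and 205 CPM against 11.2, 8.44 and 9.69 (log2 fold change -4.26 ± 0.20, edgeR adjusted p = 6.44e-09). Pparg, a lipid-sensing nuclear receptor, fell from 24, 31.1 and 42.4 CPM to 0.40, 0.39 and 0.798 CPM. Spi1, which encodes PU.1, had 321, 311 and 326 CPM in control and 265, 285 and 311 CPM with fibrils and did not pass the test (edgeR adjusted p = 0.188). Cebpa had 73.4, 82.3 and 85.9 CPM against 7.6, 25.5 and 31.2, with replicate 1 at the level of the Aβ40 libraries, 10.1, 8.28 and 9.65 CPM. Inducible factors of the AP-1, C/EBP and immediate early list rose in 23 of 34 members and fell in 5. Cebpb, a factor of inflammatory macrophage genes, rose from 18.8, 12.4 and 13.6 CPM to 92.4, 242 and 273 CPM, a log2 fold change of 3.77 ± 0.34 (edgeR adjusted p = 2.01e-06) and of 4.07 without Aβ42 replicate 1. Dusp2, a phosphatase of MAP kinases, had 1.41, 1.35 and 0.305 CPM against 16.4, 34 and 44.6. Egr2 fell from 142, 134 and 126 CPM to 23.6, 12.5 and 14.4 CPM and Egr1 from 67.3, 61 and 62.5 CPM to 51.6, 25.5 and 28 CPM, while Jun and Atf3 had 293, 310.2 and 264 and 93.3, 100.1 and 127 CPM in control and 259.5, 363 and 386 and 71.6, 95.4 and 104.7 CPM with fibrils and did not pass the test.

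Markers of alternative activation rose in 11 of 18 tested members and fell in 4. Those that rose included F13a1, the A subunit of coagulation factor XIII, with 1, 2 and 0 counts in control and 3.6, 3.03 and 4.56 CPM with fibrils, a ratio of 24.9 (95% counting interval 8.36 to 122). Tgm2, tissue transglutaminase, had 8.95, 6.95 and 4.58 CPM against 209, 275 and 296 (log2 fold change 5.24 ± 0.22). Irf4, a factor of this state, fell from 29.2, 31.3 and 31.9 CPM to 3.2, 0.866 and 1.31 CPM (log2 fold change -4.62 ± 0.26). Mrc1, Egr2 and Pparg, given above, also fell.

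In the list of metalloproteinases, inhibitors and the plasminogen system, 19 of 33 members rose, 11 of them 5-fold or more, and 10 fell. Mmp12, the macrophage elastase, had 6.83, 5.41 and 4.42 CPM in control and 1268, 786 and 943 CPM with Aβ42 fibrils (log2 fold change 7.46 ± 0.23, edgeR adjusted p = 5.54e-10). Mmp9, a gelatinase, went from 456, 366 and 362 CPM to 5355, 4383 and 5268 CPM (log2 fold change 3.66 ± 0.15). Mmp3, stromelysin, had 0.471, 0.773 and 0.61 CPM against 184, 182 and 208, and Mmp14, a membrane-bound member that cleaves pro-Mmp2, 47.2, 45.2 and 38.3 CPM against 679.7, 718 and 819. Timp1, an inhibitor of these enzymes, rose less, from 45.6, 38.2 and 51.6 CPM to 64.4, 64.4 and 71 CPM (log2 fold change 0.56 ± 0.13). In the plasminogen system, Plau, urokinase, fell from 923, 1054 and 1034 CPM to 74.4, 64.9 and 91.9 CPM (log2 fold change -3.70 ± 0.15, edgeR adjusted p = 2.14e-09).

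In the TGF-β list, 16 of 42 members rose and 13 fell. Both receptors of TGF-β fell, Tgfbr1 from 284, 357 and 333 CPM to 94.8, 55 and 56.5 CPM and Tgfbr2 from 253, 227 and 268 CPM to 106, 104 and 114 CPM (log2 fold changes -2.29 ± 0.19 and -1.20 ± 0.10). Tgfb1 itself had 478, 522 and 472 CPM against 307, 433 and 501, with replicate 1 lowest (edgeR adjusted p = 0.218). The feedback inhibitor Smad7 rose from 7.66, 10.2 and 7.78 CPM to 16.8, 26.7 and 28 CPM. Lrrc32, which anchors latent TGF-β, had 1, 2 and 1 counts in control and 16.8, 16.3 and 16.6 CPM with fibrils, a ratio of 83.2 (95% counting interval 32.4 to 306). Growth and neurotrophic factors rose in 12 and fell in 6 of 23 members. Vegfa, the main angiogenic factor, had 39, 53.1 and 33.3 CPM against 205, 220.3 and 246 (log2 fold change 2.43 ± 0.16), and Pdgfb fell from 11.1, 12.6 and 11.7 CPM to 0.40, 1.86 and 2.34 CPM.

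Purinergic and adenosine receptors were tested for 15 members, of which 6 rose and 9 fell. Besides P2ry12, P2rx7, the ATP-gated channel upstream of the inflammasome, fell from 47.6, 50.2 and 44.7 CPM to 8.0, 3.16 and 2.11 CPM (log2 fold change -3.88 ± 0.29). Adora2a, the adenosine receptor that retracts microglial processes, rose from 0.707, 0.193 and 0.458 CPM to 58, 87.7 and 99.4 CPM (log2 fold change 7.36 ± 0.33, edgeR adjusted p = 4.74e-09). Adhesion and migration genes rose in 10 and fell in 9 of 22 members. Vcam1, a ligand of leukocyte integrins, had 4.95, 2.9 and 2.29 CPM against 307, 252 and 224 (log2 fold change 6.21 ± 0.23), and Icam1 269.5, 221 and 218 CPM against 584, 599 and 619.6.

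Glycolysis and hypoxia genes rose in 26 of 36 members and fell in 1 (3 without Aβ42 replicate 1), with a median log2 fold change of 1.03. Slc2a1, the glucose transporter GLUT1, had 110.5, 112 and 100.8 CPM in control and 1108, 929.7 and 1090.3 CPM with fibrils (log2 fold change 3.27 ± 0.11, edgeR adjusted p = 7e-10). Ldha, lactate dehydrogenase, went from 422, 452 and 465 CPM to 999, 1236 and 1445 CPM, and Egln3, a HIF-induced prolyl hydroxylase, from 6.48, 5.6 and 6.56 CPM to 73.6, 84.5 and 100.98 CPM. Subunits of the respiratory chain rose in 20 of 70 members and fell in 7, a share near that of all genes for rises. Their median log2 CPM over the control mean was -0.06 in Aβ42 replicate 1 against 0.32 and 0.35 in replicates 2 and 3. The number risen was 36 when replicate 1 was left out, 12 for replicate 2 and 11 for replicate 3, and the number fallen was 4 without Aβ42 replicate 2 or 3 or control replicate 1 or 3. Cox4i1, a subunit of complex IV, had 280.1, 273 and 303 CPM against 238, 357 and 380.2 and Ndufs1, of complex I, 148, 148 and 153 CPM against 112, 106 and 99.4, of which only Ndufs1 passed the test, as a fall. Without Aβ42 replicate 1, Cox4i1 passed as a rise (log2 fold change 0.37, edgeR adjusted p = 0.000695). The TCA cycle and fatty acid oxidation list had 6 members risen and 15 fallen of 36, and the number risen was 3 without control replicate 1, control replicate 2, Aβ42 replicate 2 or Aβ42 replicate 3.

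Cholesterol synthesis and uptake genes rose in 13 of 26 members and fell in 1, with a median log2 fold change of 0.31. Sqle, squalene epoxidase, had 142, 124 and 124 CPM against 149.5, 170.2 and 154 (log2 fold change 0.28 ± 0.10, edgeR adjusted p = 0.0348), a call that several alternatives did not keep. Leaving out Aβ42 replicate 1 gave 19 risen and 3 fallen, and leaving out Aβ42 replicate 2 gave 7. Efflux and lipid storage genes fell in 13 of 27 members and rose in 7. The efflux pumps Abca1 and Abcg1 fell from 356, 357 and 416 and 402, 373 and 485 CPM to 261, 226 and 253 and 235, 201 and 206 CPM, and Acsl1, an acyl-CoA synthetase, rose from 88.5, 80.7 and 74.4 CPM to 302, 267 and 312 CPM.

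Cell cycle genes fell in 55 of 67 tested members and rose in 5, 34 fell 2-fold or more, and the median log2 fold change was -1.01. Mki67, the proliferation marker Ki-67, had 102, 122 and 142 CPM in control and 32.4, 22 and 22.4 CPM with Aβ42 fibrils (log2 fold change -2.32 ± 0.17, edgeR adjusted p = 2.63e-07). Top2a, a topoisomerase of dividing cells, fell from 78.9, 111 and 107 CPM to 37.2, 32.3 and 27.7 CPM, and Cdk1, the mitotic kinase, from 20.6, 17.4 and 24.6 CPM to 10.4, 13 and 11.9 CPM. Inhibitors of the cycle were among the members that rose. Cdkn1a, which encodes p21, had 180.0, 130.0 and 159 CPM against 405, 532 and 638 (log2 fold change 1.75 ± 0.17), and Cdkn2a 1.53, 0.386 and 2.59 CPM against 42, 71.2 and 85.9 (log2 fold change 5.43 ± 0.36). The string TTTGAA, the core of the cell cycle homology region, stood in 21 of 53 promoter windows of the list (39.6%), against 18.1% of all promoters and 11.3% of those of tested genes. It is printed in capitals for Mki67 (chr1:199952662-199952735, minus strand) and Cdk1 (chr20:19265196-19265307, plus strand), each with 2 matches.
Mki67: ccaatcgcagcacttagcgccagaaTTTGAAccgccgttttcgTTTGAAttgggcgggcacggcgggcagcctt
Cdk1: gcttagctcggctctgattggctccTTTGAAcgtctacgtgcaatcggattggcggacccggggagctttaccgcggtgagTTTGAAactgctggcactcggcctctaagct

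Genes of the antioxidant response and of iron handling rose in 32 of 43 members and fell in 5 (3 without control replicate 3), with a median log2 fold change of 0.78. Slc7a11, the cystine transporter that feeds glutathione synthesis, had 10.4, 10.6 and 7.02 CPM in control and 1047, 634 and 668 CPM with fibrils (log2 fold change 6.38 ± 0.24, edgeR adjusted p = 1.37e-09). Nqo1, a classical NRF2 target, went from 39.2, 42.3 and 34.8 CPM to 411, 443 and 429 CPM, Sod2, the mitochondrial superoxide dismutase, from 543, 457 and 480.3 CPM to 2549, 2297 and 2592 CPM, and Hmox1 from 318, 275 and 361 CPM to 544, 686 and 776 CPM. Iron import and export moved apart, since Tfrc, the transferrin receptor, rose from 153, 149 and 149 CPM to 260.3, 247 and 222 CPM and Slc40a1, ferroportin, fell from 15.8, 26.7 and 26.7 CPM to 4.8, 7.75 and 7.13 CPM. In the NADPH oxidase list, 5 of 8 members rose and 2 fell, or 1 fell without Aβ42 replicate 2 or any single control library. Cybb, the catalytic subunit of the phagocyte oxidase, fell from 659.9, 658 and 719 CPM to 127, 88.6 and 116 CPM (log2 fold change -2.63 ± 0.13), while its cytosolic partner Ncf1 rose from 634, 578 and 584 CPM to 773, 788 and 805 CPM.

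Stress and death genes were mixed. The unfolded protein and heat shock list had 10 members risen and 12 fallen of 37, against 27.1% and 26.6% of all tested genes. Trib3 and Ddit3, targets of the ATF4 branch, rose from 5.3, 6.95 and 4.42 and 68.8, 48.7 and 68.2 CPM to 52, 61 and 64.9 and 141, 157 and 165 CPM, Edem1 fell from 659.5, 651 and 709.7 CPM to 268, 253 and 282 CPM, and the chaperone Hspa5 had 862, 955 and 927 CPM against 959.6, 777 and 840.5, with overlap. In the apoptosis and necroptosis list, 16 of 30 members rose and 8 fell. Cflar, an inhibitor of caspase-8, rose from 30.9, 26.5 and 32 CPM to 419, 217 and 249.98 CPM (log2 fold change 3.29 ± 0.22), and Bcl2a1, a survival member of the BCL2 family, from 189, 164 and 189.9 CPM to 357, 291 and 326 CPM. Bmf, a pro-apoptotic member, fell from 65.7, 65.1 and 70.5 CPM to 6.4, 10.3 and 10.7 CPM, and Bcl2 from 6.83, 5.6 and 5.03 CPM to 2.4, 2.04 and 2.22 CPM.

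**Figure D4:**
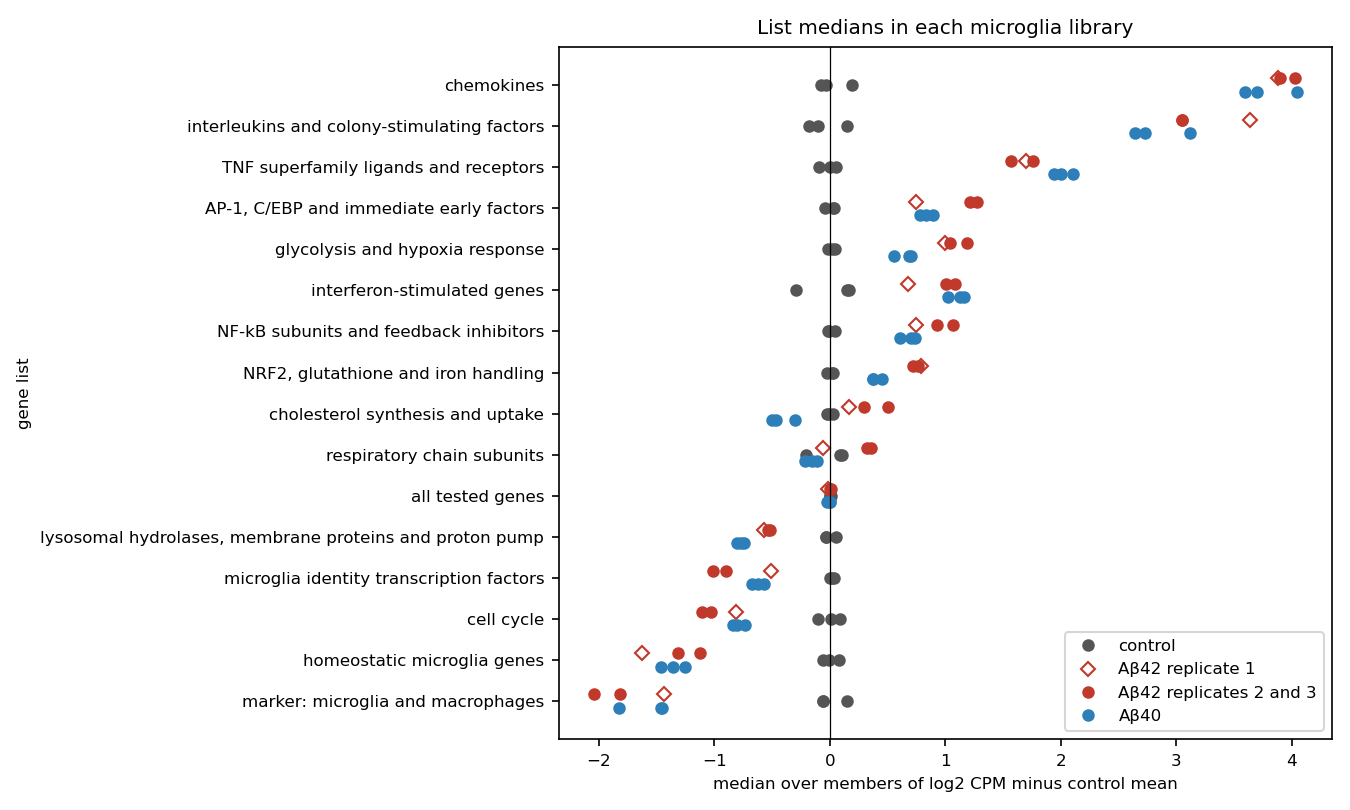
Median over the tested members of each list of log2 CPM minus the mean of the control libraries, in each of the 9 microglia libraries, with Aβ42 replicate 1 as an open diamond. For chemokines the Aβ42 libraries lie between 3.88 and 4.03, and for the respiratory chain the diamond lies at -0.06, apart from the other Aβ42 libraries.

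Across all genes, promoters of those that rose held some strings more often than those of all tested genes, which include them. The kB string stood in 5.13% of promoter windows of genes that rose 5-fold or more, in 1.36% of those of tested genes and in 1.01% of those that fell 5-fold or more. The AP-1 string TGANTCA stood in 16.5%, 4.86% and 6.53%, and the C/EBP string TTGCNNAA in 16.1%, 8.62% and 12.1%. The interferon response string stood in 6.59%, 2.91% and 3.52%. The cell cycle string ran the other way, with 9.16%, 11.3% and 20.1%, and the sterol string TCACNCCAC stood in 1.47%, 1.16% and 1.01%. However, the cell cycle string stood in 18.1% of all promoters, and no member of the cell cycle list fell 5-fold or more. Of all 24206 promoters, 1.25% held the kB string, 7.33% the AP-1 string, 10.5% the C/EBP string and 3.74% the interferon response string. Windows were found for 7935 of the tested genes, and a match is only the presence of these letters.

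**Figure D5:**
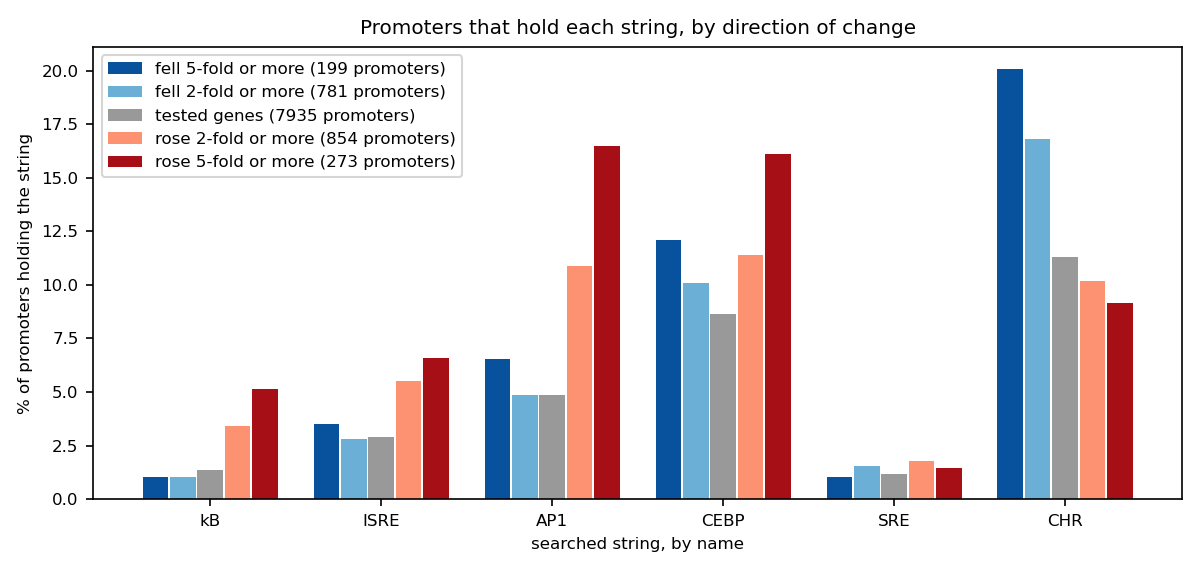
Percent of promoter windows that hold each searched string on either strand (bars from 0), for genes that fell or rose 5-fold or 2-fold or more and for all tested genes with a window, with the number of windows in the legend. The kB, ISRE and AP1 strings are highest in genes that rose 5-fold or more, and CHR in genes that fell 5-fold or more.

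Aβ42 fibrils were also compared with Aβ40 fibrils in the same fit. At an adjusted p under 0.05, 1222 genes were higher with Aβ42 (11.3%) and 976 were lower (9.01%). These counts moved with single libraries, to 3018 and 2986 without Aβ42 replicate 1, and to between 69 and 84 and between 29 and 70 without any other single library of the contrast. Genes for which the Aβ42 libraries lay together and apart from the Aβ40 libraries included Vegfa, with 205, 220.3 and 246 CPM with Aβ42 and 109, 91 and 92.9 CPM with Aβ40 fibrils (log2 difference 1.20 ± 0.16, edgeR adjusted p = 0.00429). Atp6v0d2 had 30.8, 24.9 and 26.6 CPM against 11.1, 10.5 and 9.19 (log2 difference 1.37 ± 0.16), and Sqle 149.5, 170.2 and 154 CPM against 88.6, 82.3 and 87.8. Trem2 was higher with Aβ42 (206, 271 and 255 CPM) than with Aβ40 fibrils (146, 149.8 and 142 CPM), and both were under the control libraries (log2 difference 0.74 ± 0.12, edgeR adjusted p = 0.0081). Ccl22 and Mki67 were lower with Aβ42, with 38.4, 32.2 and 32.4 and 32.4, 22 and 22.4 CPM against 87.8, 78.5 and 93.8 and 53.8, 50.3 and 59.8 CPM. These examples were picked for the separation of their libraries. In other called genes, Aβ42 replicate 1 lay near the Aβ40 libraries. Cebpb had 92.4, 242 and 273 CPM with Aβ42 and 58.9, 63.3 and 73.1 CPM with Aβ40 fibrils (log2 difference 1.67 ± 0.31, edgeR adjusted p = 0.0115). Cebpa had 7.6, 25.5 and 31.2 CPM against 10.1, 8.28 and 9.65 (edgeR adjusted p = 0.0269).

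The response was set beside that of astrocytes, with an interaction term fitted over 18 libraries. Of 11581 genes, 2236 had a higher log2 response to Aβ42 fibrils in microglia (19.3%) and 2078 a lower one (17.9%). In the astrocyte cultures, the summed microglia and macrophage markers were 984 to 1040.0 CPM in the control libraries and 232 to 251 CPM in the Aβ42 libraries, with 17 of 20 markers fallen and 1 risen, and the part of this in the difference was not tested. Fam110c, which the filter on low counts kept out of the test over the microglia libraries, had no count in the control libraries and 4.8, 1.34 and 1.2 CPM with Aβ42 fibrils, at least 5.23-fold higher when the control is set at 3 counts per library, and at least 2.71-fold without Aβ42 replicate 1. Its response did not differ past the threshold between the cell types (microglia minus astrocytes 2.93 ± 2.42 on the log2 scale, edgeR adjusted p = 0.369). Cftr had no count in control and 0, 5 and 3 counts in Aβ42 replicates 1, 2 and 3, so no fold is given.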

How the data were processed

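Polyadenylated RNA was sequenced with a stranded kit in paired reads of 150 cycles. The deposited tables held whole-number read counts per gene symbol for each library, which the authors had not normalized. The submitters' processing notes name STAR, Salmon, DESeq2 and the rat build rn5, and the settings of the counter are not given in the sources used here. Rows of reads outside genes or ambiguous between genes took 21.7% to 24.5% of a library and were left out.

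Counts were scaled by TMM and tested with glmQLFit and glmQLFTest of edgeR 4.0.16 (R 4.3.3, limma 3.58.1) over the 9 microglia libraries, which share 1 estimate of spread, after filterByExpr, with Benjamini-Hochberg adjustment over 10837 genes. The comparison with astrocytes used all 18 libraries. Each SE was derived from the test, as the absolute log2 fold change divided by the square root of the quasi-likelihood F statistic. Alternatives were DESeq2 1.42.0, other scalings and filters, thinning, the 6 libraries alone, a replicate block and leaving out each library. The code was tested on simulated data. Tables and figures were made with Python 3.11.15, pandas 2.3.3, numpy 2.4.6, scipy 1.17.1 and matplotlib 3.10.9.

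Of 17327 symbols, 14811 were current RefSeq rat symbols and 2098 matched a single synonym. Promoters are from RefSeq (GRCr8), another build than rn5, and were joined by symbol. Genes were named if the study's text names them for microglia, if marked in the lists, if highest or lowest in a list, or if among the 6 smallest p-values in each direction without overlap. The members and lists were chosen with earlier results of these data known. Values of a few genes are not reported here.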

Additional observations from a re-analysis of the deposited data

Results flagged for a closer look

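The response to Aβ42 fibrils differed between microglia and astrocytes, by an interaction term in the edgeR quasi-likelihood fit (Benjamini-Hochberg adjusted), for 2236 genes with a higher and 2078 with a lower log2 response in microglia. The same test gave the values below, each as the log2 response in microglia minus that in astrocytes. Among the genes given here, Dhrs9 had the largest difference, -8.82 (adjusted p = 7.83e-14), since it fell in microglia (-4.64) and rose in astrocytes (4.21). Mt2A differed by 7.39 (adjusted p = 1.3e-11), with a log2 response of 7.45 in microglia and 0.07 in astrocytes. For Trem2 the difference was 4.34 (adjusted p = 7.76e-07), with -0.86 in microglia and -5.19 in astrocytes. The response was larger in microglia for Mmp12 (3.15, adjusted p = 0.00102) and Cebpb (1.86, adjusted p = 0.00529). Some genes rose in both cell types with a smaller log2 rise in microglia. They were Nos2 (-4.86), Mmp9 (-3.26), Il1b (-2.81), Cxcl2 (-2.29), Ccl20 (-1.76) and Cfb (-0.63), with adjusted p-values from 1.57e-08 to 0.0136. These are differences of log2 ratios, and the rises in CPM were not compared between the cell types. Blnk fell further in microglia (-3.22, adjusted p = 5.17e-09) and Csf1r less (0.73, adjusted p = 0.00594). Csf1r and Trem2 are microglial genes, and in the astrocyte cultures 17 of 20 microglia and macrophage markers fell with Aβ42 fibrils, their sum going from 984 to 1040.0 CPM in control to 232 to 251 CPM. The part of these markers' cells in the differences was not tested.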

How the results depend on the processing

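Of 185 named genes tested, 165 passed the threshold, none of these changed sign under any alternative, and Sorl1 and Sqle lost their call under several. Counts of changed genes kept within 1.5 times, with these exceptions. Genes risen 5-fold or more numbered 619 with no filter and 178 with 10 counts in every library, and genes fallen as much 126 under the latter, which test more and fewer genes. Against Aβ40 fibrils, leaving out 1 library gave 69 to 3018 genes higher and 29 to 2986 lower, the highest values without Aβ42 replicate 1, and the cause was not tested. Deviations of the microglia libraries from their group means correlated at -0.18 to 0.19 between same-numbered libraries and at -0.195 to 0.207 between the others. Whether the replicate numbers pair the libraries cannot be told from this, since deviations within a group of 3 sum to 0 and the labels do not say. The replicate block gave 2678 and 2753 genes risen and fallen against control, and 400 and 352 against Aβ40. Upper quartile scaling gave 3267 risen and 2586 fallen, against 2935 and 2885. Genes near no change turned sign. Upper quartile gave C3 0.028, App 0.0082, Sdhb 0.011 and Spr 0.048, library totals gave Ctsd -0.015, no filter gave Ctsd -0.0031, the DESeq2 Wald test gave Tmem119 -0.0027 and the replicate block -0.016 (all log2 fold changes). Leaving out 1 library gave ranges of -0.17 to 0.059 for C3, -0.060 to 0.066 for Ctsd, -0.037 to 0.16 for Il4r, -0.13 to 0.22 for Mx1, -0.17 to 0.079 for Spr, -0.071 to 0.023 for Sdhb, -0.11 to 0.026 for App and -0.11 to 0.24 for Tmem119. Cox4i1, Cxcl16, Jun and Plin2 did not pass with all libraries but passed without Aβ42 replicate 1. Fitted changes of genes with few counts rest on single libraries. Without control replicate 1 they were 11.87 for Pla2g2a and 6.59 for Ccl22 (8.60 without control replicate 3), without control replicate 2 they were 5.65 for Arg1 and 5.54 for F13a1, and without Aβ42 replicate 2 it was -6.76 for Cd36. The list counts without Aβ42 replicate 1 were chosen after seeing the data, and its 2613723 counts limit what can be said of low genes in that library.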
